A study of Mus musculus with 12 samples.

Results

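Airn and Kcnq1ot1 are long noncoding RNAs that each lie inside a cluster of imprinted genes, and they were examined together with the protein-coding genes of their clusters in haploid and diploid mouse epiblast stem cells (EpiSCs). The 9 genes were Airn and Igf2r of the cluster on chromosome 17, and Kcnq1ot1, Cdkn1c, Phlda2, Slc22a18, Kcnq1, Nap1l4 and Osbpl5 of the cluster on chromosome 7. They were chosen by name out of 18193 genes, and every probe set that the platform annotation pairs with 1 of these symbols alone was used. This gave 20 probe sets, of which 11 were for the noncoding RNAs (5 for Airn and 6 for Kcnq1ot1) and 9 for the coding genes. EpiSCs are pluripotent cells that resemble the epiblast after implantation. By their titles the 12 arrays form 4 groups with 3 biological replicates each, namely haploid EpiSC-1, haploid EpiSC-2, diploid EpiSC-1 and diploid EpiSC-2, and the 1 and 2 were read as separate cell lines. The haploid lines were labelled strain 129Sv and the diploid lines strain B6D2F1, so ploidy and strain cannot be told apart in any difference between them. The culture medium, N2B27 with added bFGF and Activin A, was shared by all groups, and no other treatment or allele is labelled. The labels do not say from which parent the haploid chromosome set came.

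Genomic imprinting restricts expression of a gene to the copy inherited from 1 parent. In mouse embryos Airn and Kcnq1ot1 are transcribed from the paternal chromosome, where their promoters lack the DNA methylation that the maternal copy carries, and their transcription silences neighbouring genes on the same chromosome. Igf2r, Cdkn1c, Phlda2, Slc22a18, Kcnq1 and Osbpl5 are known as genes expressed from the maternal copy, in some cases in the placenta only. Airn starts within Igf2r on the opposite strand, and Kcnq1ot1 starts within Kcnq1 on the opposite strand.

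The promoters of both noncoding RNAs and of the coding genes with the lowest adjusted p in each cluster are shown, since these transcripts moved in opposite directions between the ploidies. Each is the RefSeq window of 250 bases before to 50 bases after the start on GRCm38.p6, written 5′ to 3′ on the gene's own strand. Of the 9 genes, 6 had an entry. Capitals mark the NF-Y box CCAAT or its reverse complement ATTGG, the motif bound by the transcription factor NF-Y.
Airn, chr17:12741061-12741360, plus strand: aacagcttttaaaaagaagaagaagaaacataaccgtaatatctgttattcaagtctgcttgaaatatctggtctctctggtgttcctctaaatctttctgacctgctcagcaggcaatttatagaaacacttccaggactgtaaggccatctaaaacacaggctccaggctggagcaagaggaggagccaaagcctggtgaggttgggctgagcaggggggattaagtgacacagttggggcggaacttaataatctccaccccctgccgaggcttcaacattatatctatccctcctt
Igf2r, chr17:12769657-12769956, minus strand: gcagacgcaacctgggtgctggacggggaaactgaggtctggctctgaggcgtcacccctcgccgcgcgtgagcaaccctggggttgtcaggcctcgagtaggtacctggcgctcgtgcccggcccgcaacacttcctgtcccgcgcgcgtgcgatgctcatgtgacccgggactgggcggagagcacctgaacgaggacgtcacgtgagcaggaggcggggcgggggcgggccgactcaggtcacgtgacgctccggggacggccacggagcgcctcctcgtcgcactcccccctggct
Kcnq1ot1, chr7:143296498-143296797, minus strand: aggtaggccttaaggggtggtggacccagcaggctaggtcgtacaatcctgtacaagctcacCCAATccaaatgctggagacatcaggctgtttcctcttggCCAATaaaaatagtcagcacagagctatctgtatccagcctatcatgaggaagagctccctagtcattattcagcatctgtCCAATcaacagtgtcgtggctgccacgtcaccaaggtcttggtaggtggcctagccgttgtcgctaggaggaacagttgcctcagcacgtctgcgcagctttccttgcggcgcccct
Phlda2, chr7:143502475-143502774, minus strand: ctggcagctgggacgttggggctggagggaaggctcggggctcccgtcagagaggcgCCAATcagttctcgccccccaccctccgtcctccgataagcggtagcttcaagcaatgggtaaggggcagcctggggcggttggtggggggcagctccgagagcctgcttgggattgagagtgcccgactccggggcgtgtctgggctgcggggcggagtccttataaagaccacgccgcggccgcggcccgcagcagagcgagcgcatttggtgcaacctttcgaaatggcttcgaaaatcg
The Kcnq1ot1 window held 3 NF-Y boxes, all on the gene's strand, 188, 148 and 67 bases before the start. The Phlda2 window held 1, at 193 bases before the start, and the Airn and Igf2r windows held none. Over all 32851 promoter windows of the table, 37.4% held at least 1 NF-Y box and 3.37% held 3 or more. TGCCGC, the core letters of the motif bound by the imprint-maintaining protein ZFP57, was in none of these 4 windows on either strand and in 11.6% of all windows. CG dinucleotides, the sites of DNA methylation, numbered 34 in the Igf2r window and 26 in the Phlda2 window, against 9 for Kcnq1ot1 and 3 for Airn. The median over all windows was 7. Fewer CG were held by 92.3% of windows for Igf2r, 83.1% for Phlda2, 54.2% for Kcnq1ot1 and 23.3% for Airn. The window of the coding gene Slc22a18, not shown, held 2. These letter matches describe the windows only.

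Values are MAS5 signals on a linear scale, and differences are on the log2 scale. A probe set entered the main test if its mean log2 signal over the 12 arrays reached 5.97, a signal of 62.6, the median of all probe sets. Over all 19837 tested probe sets replicates of a line correlated at 0.987 to 0.990, and array medians ranged over signals of 63.4 to 76.3. Of the 20 probe sets of the 2 clusters, 8 passed. The 3 noncoding ones among these, Airn 1451634_at and 1436627_at and Kcnq1ot1 1457781_at, passed through their haploid arrays, since all diploid arrays lay under the filter level for all 11 noncoding probe sets. They therefore had to differ to be tested, and their calls lend no support as a count. The 12 other probe sets are given with an alternative fit that had no signal filter.

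Over both clusters, 7 of the 8 tested probe sets were called between the ploidies, 4 higher and 3 lower in haploid cells. These counts include the 3 noncoding probe sets that had to differ to be tested. Of the 5 coding probe sets tested, 1 was called higher and 3 lower. Of all 19837 tested probe sets 15.9% were called, 9.37% higher and 6.54% lower. Those all-probe-set calls split as 1859 higher and 1298 lower, and as 1369 and 1663 once arrays were centred on their medians, which moved the median difference over all probe sets from 0.03 to -0.09. In the fit without a filter 14 of 20 were called, 10 higher and 4 lower, with 16.2% called among 34945 probe sets, 9.45% higher and 6.74% lower. Haploid and diploid arrays did not overlap in 13 of the 20. Of these, 9 were higher in haploid cells (8 noncoding and Nap1l4) and 4 lower (both Igf2r, Phlda2 and Slc22a18 1417809_at). The 8 noncoding ones were 4 of Airn and 4 of Kcnq1ot1. Probe sets of 1 gene are repeated readings, so the counts of probe sets here are not counts of independent genes. Over all probe sets with 1 symbol, 10.7% stood apart as higher and 7.80% as lower. Each call rests on 2 lines per ploidy. With line means as units 5 of the 8 were called, and 3 of the 5 coding ones, against 3.03% of all tested.

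**Figure D1:**
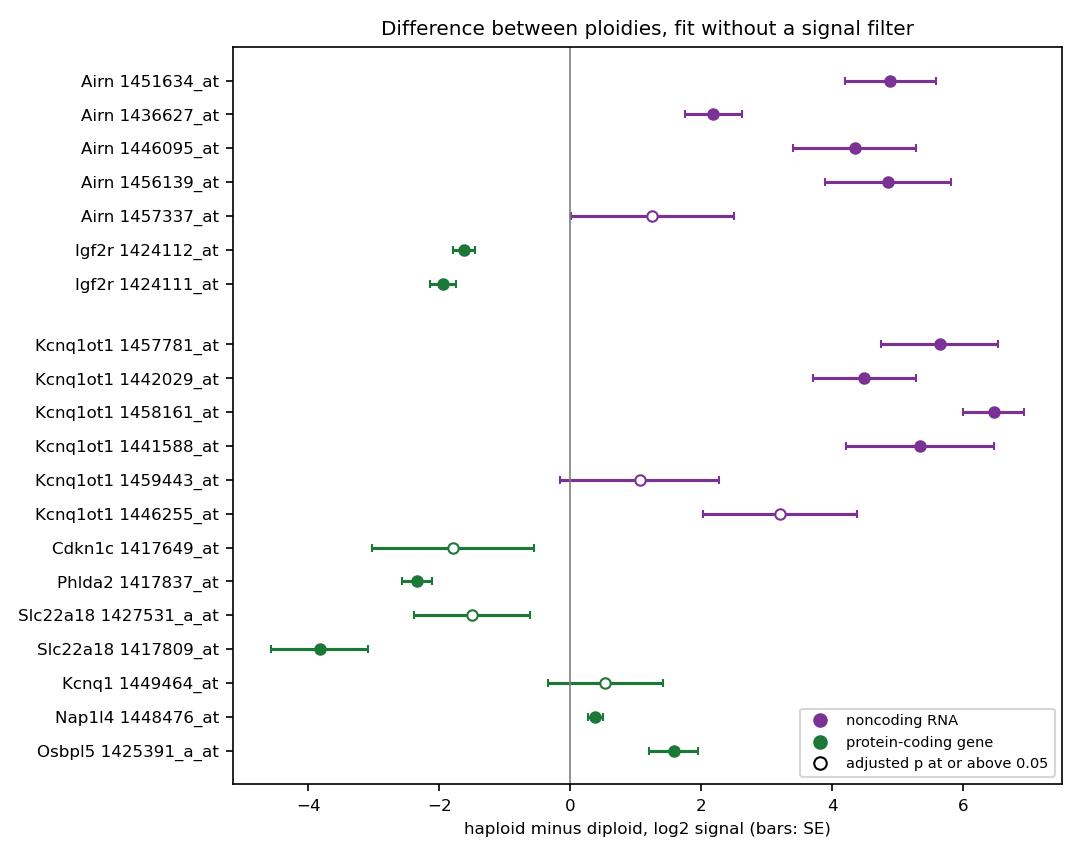
Difference between haploid and diploid cells on the log2 scale for all 20 probe sets, from the limma fit without a signal filter, with bars of 1 SE and the cluster of chromosome 17 above that of chromosome 7. All 11 noncoding points lie right of 0 and 8 are filled (adjusted p under 0.05), while the coding points run from -3.83 for Slc22a18 1417809_at, a size that rests on haploid signals far under the filter level, to 1.58 for Osbpl5.

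Airn RNA was high in both haploid lines and near the background in both diploid lines. Airn 1451634_at, its brightest probe set, read 1041, 928 and 1028 (EpiSC-1) and 433, 426 and 456 (EpiSC-2) in the haploid lines, against 5.60, 26.4 and 37.5 (EpiSC-1) and 32.7, 32.1 and 21.2 (EpiSC-2) in the diploid lines. Every haploid array stood above every diploid array, and every haploid EpiSC-1 array above every haploid EpiSC-2 array. The log2 difference, haploid minus diploid, was 4.89 ± 1.08 (SE, 2 lines of 3 arrays each; limma adjusted p = 0.00520). Since diploid signals this low have no settled size, the haploid geometric mean may be set against the filter level instead, of which it was 10.6 times.

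The other Airn probe sets differed in the same way, with 1 exception. Airn 1436627_at read 307, 285 and 335 (EpiSC-1) and 127, 101 and 134 (EpiSC-2) in the haploid lines, against 30.3, 43.6 and 60.9 (EpiSC-1) and 44.7, 33.7 and 47.0 (EpiSC-2) in the diploid lines. The ploidies did not overlap, and the difference was 2.19 ± 0.59 (limma adjusted p = 0.0185). This call was lost without the line haploid EpiSC-1 (adjusted p = 0.185, the highest over 25 alternatives) and with line means as units (adjusted p = 0.0755). Airn 1446095_at and 1456139_at lay under the signal filter, and in the fit without it they were higher in haploid cells by 4.34 ± 0.93 (adjusted p = 0.00389) and 4.85 ± 0.96 (adjusted p = 0.00218). The 1446095_at call was lost without the line haploid EpiSC-1 (adjusted p = 0.0522, the highest over 20 alternatives), and with 32 added to each signal these differences were 2.18 and 2.40. Their haploid arrays read 90.0 to 294 and 115 to 282, against diploid arrays of 1.76 to 27.5 and 1.85 to 24.9. Airn 1457337_at was under the filter level on all 12 arrays, with overlapping signals of 5.91 to 58.0 in haploid and 2.21 to 21.7 in diploid cells. A further probe set that the annotation pairs with both Airn and Igf2r was left out by the rule. It was dim everywhere, with haploid arrays of 2.83 to 54.0 and diploid arrays of 3.62 to 42.2.

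Igf2r, which encodes the receptor that carries IGF2 and mannose 6-phosphate proteins to lysosomes, was lower in haploid cells on both of its probe sets. Igf2r 1424112_at read 294, 269 and 265 (EpiSC-1) and 421, 411 and 375 (EpiSC-2) in the haploid lines, against 1099, 1018 and 1087 (EpiSC-1) and 908, 903 and 1129.8 (EpiSC-2) in the diploid lines. No haploid array reached a diploid one, and the difference was -1.62 ± 0.23 (SE; limma adjusted p = 2.03e-04). Igf2r 1424111_at read 171, 169 and 144 (EpiSC-1) and 249, 168 and 210.2 (EpiSC-2) in the haploid lines, against 635, 636 and 606 (EpiSC-1) and 776, 774 and 821 (EpiSC-2) in the diploid lines. Here the haploid lines overlapped each other while the ploidies stood apart, by -1.95 ± 0.29 (adjusted p = 2.76e-04). Both Igf2r probe sets stayed called under each of their alternatives, of which there were 27 for 1424112_at and 25 for 1424111_at. Their adjusted p reached at most 0.0405 and 0.0278, with line means as units.

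Within the chromosome 17 cluster the noncoding RNA was higher and the coding gene lower in each haploid line. Against the mean of the diploid lines, Airn 1451634_at differed on the log2 scale by 4.30 in haploid EpiSC-2 and by 5.48 in haploid EpiSC-1. Igf2r 1424112_at differed by -1.34 in haploid EpiSC-2 and by -1.89 in haploid EpiSC-1. The line with the higher Airn signal had the lower Igf2r signal, which with 2 haploid lines is a description and no test of a relation.

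**Figure D2:**
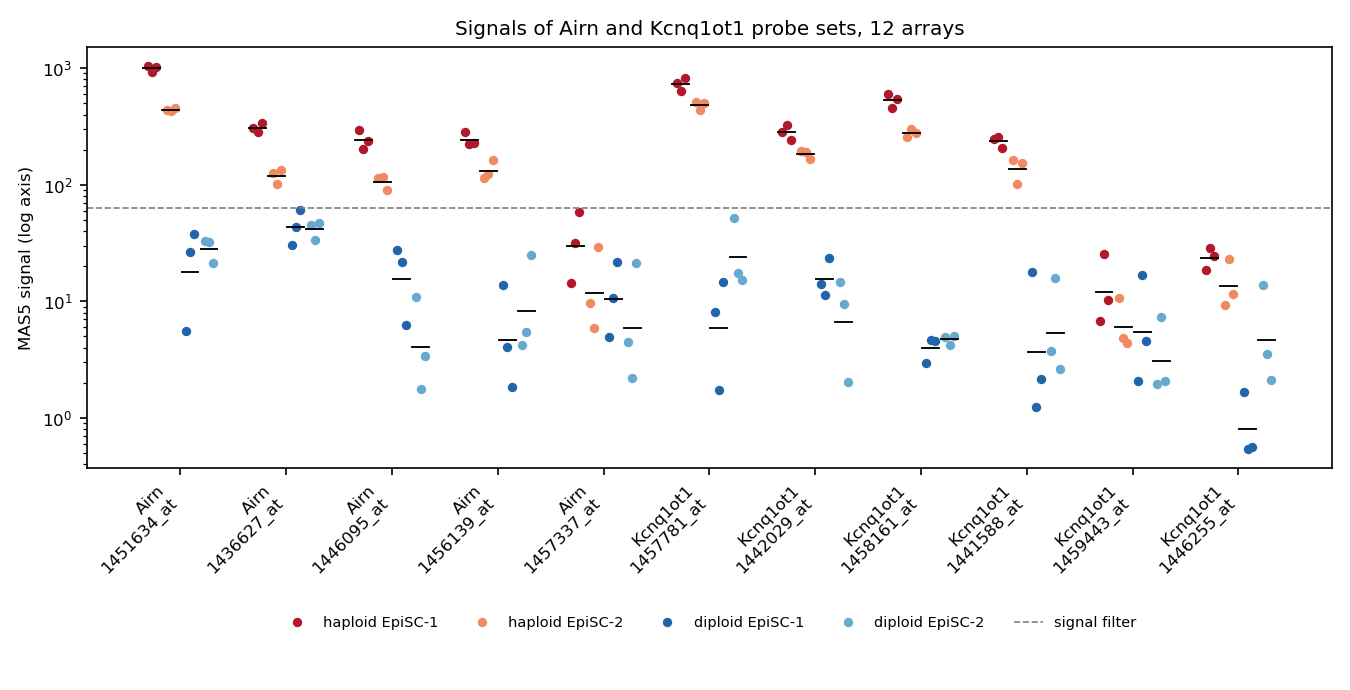
MAS5 signals of the 11 Airn and Kcnq1ot1 probe sets on a log axis, with 1 point per array, 3 arrays per line, black bars at the geometric mean of each line and a dashed line at the signal filter of 62.6. In 8 of the 11 probe sets all haploid points lie above all diploid points and those of haploid EpiSC-1 above those of haploid EpiSC-2, while every diploid point lies under the dashed line.

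Kcnq1ot1, like Airn, was highest in haploid EpiSC-1, then in haploid EpiSC-2, with both diploid lines lowest. The order of the diploid lines, which lay under the filter level, varied among the probe sets of both RNAs. Kcnq1ot1 1457781_at, its brightest probe set, read 749, 631 and 816 (EpiSC-1) and 514, 436 and 506 (EpiSC-2) in the haploid lines, against 8.16, 1.74 and 14.5 (EpiSC-1) and 52.2, 17.5 and 15.2 (EpiSC-2) in the diploid lines. The ploidies did not overlap, and the difference was 5.64 ± 1.35 (SE; limma adjusted p = 0.00917). The haploid geometric mean was 9.48 times the filter level. Without the line haploid EpiSC-1 the difference was 5.34 and missed the threshold (adjusted p = 0.0552, the highest over 26 alternatives).

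Among the Kcnq1ot1 probe sets under the filter, 3 were higher in haploid cells in the fit without a filter. Kcnq1ot1 1458161_at read 600, 454 and 542 (EpiSC-1) and 259, 301 and 275 (EpiSC-2) in the haploid lines, against 2.96, 4.63 and 4.55 (EpiSC-1) and 4.97, 4.22 and 5.05 (EpiSC-2) in the diploid lines. Its diploid signals were low and even, with an SD of 0.942 in diploid EpiSC-1 and 0.459 in diploid EpiSC-2, and the difference was 6.47 ± 0.47 (adjusted p = 1.50e-07). Kcnq1ot1 1441588_at differed by 5.34 ± 1.13 (adjusted p = 0.00343) and 1442029_at by 4.49 ± 0.79 (adjusted p = 7.99e-04). With 32 added to each signal the differences of 1458161_at, 1441588_at and 1442029_at were 3.52, 2.46 and 2.56. The remaining 2, 1446255_at and 1459443_at, stayed under the filter level on all arrays, with differences of 3.21 (adjusted p = 0.0798) and 1.06 (adjusted p = 0.736).

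The coding genes of the chromosome 7 cluster did not move as 1 group. Phlda2, which encodes a pleckstrin homology protein known to limit growth of the placenta, was lower in haploid cells. Its probe set read 324, 350.2 and 329 (EpiSC-1) and 506, 525 and 503 (EpiSC-2) in the haploid lines, against 3075, 2583 and 3007 (EpiSC-1) and 1457, 1555 and 1532 (EpiSC-2) in the diploid lines. All 4 lines stood apart from each other, with the haploid lines lowest, and the ploidy difference was -2.34 ± 0.26 (SE; limma adjusted p = 1.45e-05). It stayed called under all 27 of its alternatives, with an adjusted p of at most 0.0338.

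Slc22a18, which encodes a membrane transporter of the organic cation family, gave different answers on its 2 probe sets. Slc22a18 1417809_at read 2.79, 4.35 and 2.52 (EpiSC-1) and 4.80, 7.64 and 5.95 (EpiSC-2) in the haploid lines, against 77.6, 55.9 and 71.3 (EpiSC-1) and 28.4, 68.8 and 89.4 (EpiSC-2) in the diploid lines. The ploidies did not overlap although the diploid signals were close to the filter level, and the difference in the fit without a filter was -3.83 ± 0.74 (adjusted p = 0.00180). Its size is unsettled, since the haploid signals lay far under the filter level and the difference was -1.38 with 32 added to each signal (adjusted p = 0.00338). Slc22a18 1427531_a_at overlapped between the ploidies, since haploid arrays read 7.84 to 47.9 and diploid arrays 15.7 to 82.8, with a difference of -1.50 ± 0.88 (adjusted p = 0.336).

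Cdkn1c, which encodes the cyclin-dependent kinase inhibitor p57, separated the haploid lines rather than the ploidies. It read 17.2, 22.7 and 1.11 (EpiSC-1) and 70.4, 90.7 and 97.4 (EpiSC-2) in the haploid lines, against 69.8, 65.3 and 71.5 (EpiSC-1) and 135, 94.5 and 109 (EpiSC-2) in the diploid lines. Haploid EpiSC-1 was below all other arrays, and haploid EpiSC-2 overlapped both diploid lines. Against the mean of the diploid lines, haploid EpiSC-2 differed by -0.04 and haploid EpiSC-1 by -3.53 on the log2 scale. The size of the second value rests in part on the array at 1.11. The ploidy difference was -1.79 ± 1.23 (adjusted p = 0.449 in the fit without a filter) and -0.73 with 32 added to each signal, and Cdkn1c was not tested in the main fit, since its mean lay under the filter level.

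Nap1l4 and Osbpl5, at the far end of the cluster from Kcnq1ot1, were not lower in haploid cells. Nap1l4, which encodes a nucleosome assembly protein that binds histones, read 5319, 5166 and 5385 (EpiSC-1) and 3651, 3784 and 3824 (EpiSC-2) in the haploid lines, against 3344, 3296 and 3454 (EpiSC-1) and 3462, 3461 and 3494 (EpiSC-2) in the diploid lines. All haploid arrays were above all diploid arrays, but the difference of 0.38 ± 0.13 missed the threshold (limma adjusted p = 0.0621) and passed it in 4 of 27 alternatives, over which the adjusted p ran up to 0.528. The difference from the diploid mean was 0.13 for haploid EpiSC-2 and 0.63 for haploid EpiSC-1.

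Osbpl5, which encodes an oxysterol-binding-protein relative that moves lipids between membranes, read 378, 381 and 324 (EpiSC-1) and 164, 262 and 270.5 (EpiSC-2) in the haploid lines, against 62.2, 60.3 and 76.0 (EpiSC-1) and 184, 122 and 117 (EpiSC-2) in the diploid lines. The haploid EpiSC-2 array at 164 lay under the diploid EpiSC-2 array at 184, so the ploidies overlapped. The difference of 1.58 ± 0.52 just passed (limma adjusted p = 0.0467) and was lost in 17 of 26 alternatives, including line means as units (adjusted p = 0.128), without haploid EpiSC-1 (adjusted p = 0.226) and with arrays centred on their medians (adjusted p = 0.0574). Kcnq1, which encodes a potassium channel subunit, was under the filter level on all arrays, with haploid arrays of 10.3 to 49.7 and diploid arrays of 7.34 to 25.9. Its difference was 0.53 ± 0.88 (adjusted p = 0.852 in the fit without a filter).

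**Figure D3:**
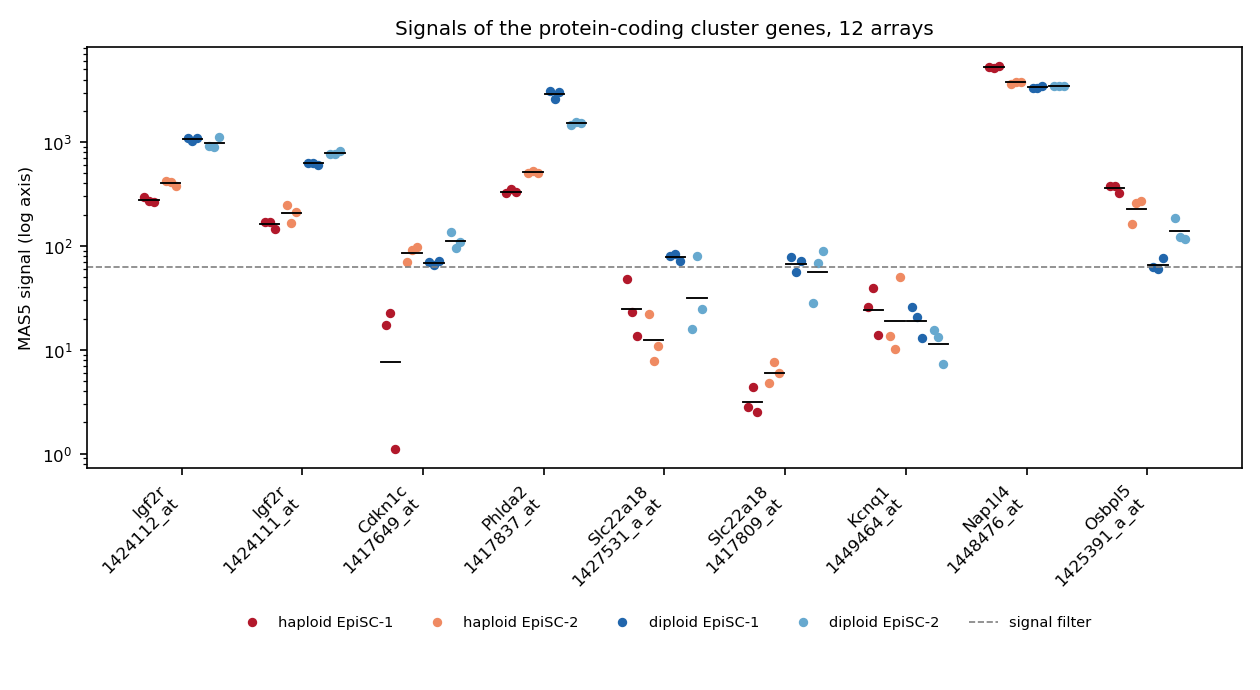
MAS5 signals of the 9 probe sets of the coding genes on a log axis, with 1 point per array, 3 arrays per line, black bars at the geometric mean of each line and a dashed line at the signal filter of 62.6. Igf2r, Phlda2 and Slc22a18 1417809_at have all haploid points under all diploid points, Nap1l4 has them above, and Cdkn1c is low in haploid EpiSC-1 alone.

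The next comparison asked how far the haploid lines differed from each other. Among the 8 tested probe sets 6 differed between haploid EpiSC-2 and haploid EpiSC-1, 3 higher and 3 lower in EpiSC-2. Of all tested probe sets 49.5% were called, 22.8% higher and 26.7% lower, so a call here is common. Those numbered 4522 higher and 5305 lower, and 6789 and 3363 with centred arrays. Airn 1436627_at was lower in haploid EpiSC-2 (log2 difference -1.36 ± 0.25, limma adjusted p = 3.91e-04). Airn 1451634_at had a similar difference, -1.19 ± 0.48, that missed the threshold (adjusted p = 0.0535), and it was called once 32 was added to each signal (adjusted p = 7.32e-05, within 2.86e-07 to 0.114 over 20 alternatives). For Kcnq1ot1 1457781_at the difference was -0.59 ± 0.60 (adjusted p = 0.440), and with 32 added it was -0.56 (adjusted p = 0.0272, within 9.56e-04 to 0.592 over 20 alternatives). The spread that these fits share across the 4 lines includes the uneven near-background diploid signals.

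The coding genes split between the haploid lines in both directions. Higher in haploid EpiSC-2 were Phlda2 by 0.61 ± 0.07 (limma adjusted p = 4.91e-06), Igf2r 1424112_at by 0.54 ± 0.09 (adjusted p = 1.94e-04) and Igf2r 1424111_at by 0.36 ± 0.12 (adjusted p = 0.0272). The last was lost without haploid EpiSC-1 replicate 3 (adjusted p = 0.108), haploid EpiSC-2 replicate 1 (0.141) or haploid EpiSC-2 replicate 3 (0.0641). Cdkn1c was higher by 3.50 ± 0.79 in the fit without a filter (adjusted p = 0.00312), where 27.9% of all probe sets were called. Its size rested on haploid EpiSC-1 replicate 3, without which it was 2.11 (adjusted p = 1.40e-04). Nap1l4 was lower in haploid EpiSC-2, at -0.50 ± 0.04 (adjusted p = 1.05e-07). Osbpl5 was lower as well, at -0.67 ± 0.21 (adjusted p = 0.0173), a call lost with centred arrays and without any of 3 single arrays, haploid EpiSC-1 replicates 1 and 2 and haploid EpiSC-2 replicate 1.

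The diploid lines differed at 4 of the 8 tested probe sets, 3 higher and 1 lower in diploid EpiSC-2, with 53.3% of all tested probe sets called, 22.4% higher and 30.9% lower. Phlda2 was lower in diploid EpiSC-2, at -0.93 ± 0.07 (limma adjusted p = 6.15e-08), and Osbpl5 was higher, at 1.07 ± 0.21 (adjusted p = 6.83e-04). Igf2r 1424111_at was higher by 0.34 ± 0.12 (adjusted p = 0.0336), while 1424112_at of the same gene gave -0.13 ± 0.09 (adjusted p = 0.250), so the Igf2r probe sets differ in sign here. The Igf2r 1424111_at call was lost in 7 alternatives, among them the removal of any single diploid array, with an adjusted p of up to 0.0915. Kcnq1ot1 1457781_at was called higher in diploid EpiSC-2 by 2.03 ± 0.60 (adjusted p = 0.0105), but all 6 diploid signals lay under the filter level, the difference was 0.00 once low signals were raised to that level, and it was lost without diploid EpiSC-2 replicate 1 (1.47, adjusted p = 0.0608).

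Other genes in and around the clusters were counted as neighbours on their brightest probe sets. Of the neighbours of Kcnq1ot1, Cars, Tnfrsf26, Tnfrsf22 and Tnfrsf23 lie between Nap1l4 and Osbpl5. The counts therefore do not mark where a cluster ends. Of 11 neighbours of Airn and Igf2r, 5 were tested and none was called between the ploidies by limma, with 0 at an unadjusted p under 0.05 and a median difference of -0.15 against 0.03 over all tested probe sets. Among them, the mitochondrial ribosome gene Mrpl18 had -0.21 (adjusted p = 0.292), the superoxide dismutase gene Sod2 -0.10 (adjusted p = 0.703) and the RNA methylation cofactor Wtap -0.05 (adjusted p = 0.847). Pnldc1 had the widest difference of the 5, -1.42 ± 1.04 (adjusted p = 0.418), with arrays of 12.6 to 67.2 in haploid and 79.1 to 177 in diploid cells that did not overlap. Of 12 neighbours of Kcnq1ot1, 7 were tested and none was called by limma, again with 0 at an unadjusted p under 0.05 and a median of -0.16. The tetraspanin Cd81, for example, differed by 0.29 (adjusted p = 0.454). Its value was -0.24 for haploid EpiSC-2 and 0.81 for haploid EpiSC-1, the same order of haploid lines as Nap1l4 and Osbpl5. Among Kcnq1ot1 neighbours under the filter, which were not tested, Ascl2 differed by -1.29 in haploid EpiSC-1 and by -0.65 in haploid EpiSC-2. Tnfrsf23 differed by 1.52 and 0.19 in these lines, while Th and Trpm5 had values of both signs. The ploidies overlapped in each of these genes.

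**Figure D4:**
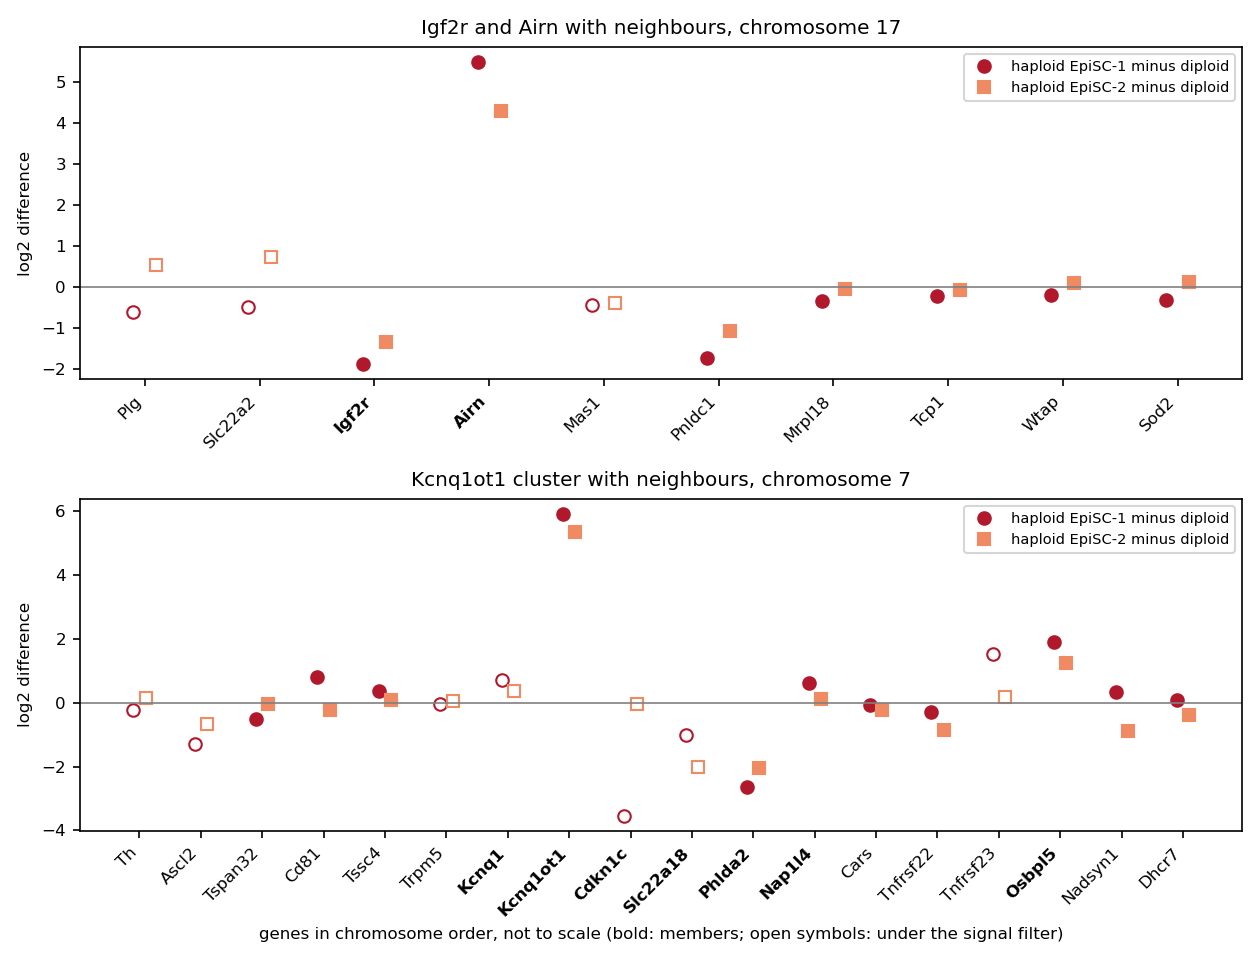
Log2 difference of each haploid line from the mean of the diploid lines, for the clusters (bold) and their neighbours in chromosome order and not to scale, with open symbols for probe sets under the signal filter. Airn and Kcnq1ot1 stand above all other genes shown. Igf2r and Phlda2 lie below the neighbours that passed the filter, with Pnldc1 close to Igf2r. So do Cdkn1c in haploid EpiSC-1 and Slc22a18 in haploid EpiSC-2. Slc22a18 is shown by 1427531_a_at, its brighter probe set, which was not called between the ploidies.

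Other lists give the setting of these genes. Their counts are to be read against the 15.9% called and 6.54% called lower over all tested probe sets. Of 9 tested genes on a list for imprint maintenance and DNA methylation, 1 was lower in haploid cells and none higher. It was the DNA methyltransferase Dnmt3b, at -1.27 ± 0.26 (limma adjusted p = 0.00289), which is also on the epiblast list. The other 8 were not called, among them Dnmt1 at 0.23 (adjusted p = 0.385), Uhrf1 at 0.19 (0.344) and Trim28 at -0.20 (0.341). The imprint-protecting zinc finger gene Zfp57 was at -0.44 ± 0.53 (adjusted p = 0.662). Of 10 tested genes for writers of repressive histone marks and their partners, 2 were lower, the Polycomb subunits Suz12 at -0.49 ± 0.11 (adjusted p = 0.00692) and Eed at -0.36 ± 0.12 (adjusted p = 0.0447). Of 12 tested ligands, relatives and partners of the coding genes, 1 was higher and 2 lower. The growth factor gene Igf2, itself imprinted and a ligand of the Igf2r protein, was higher by 1.16 ± 0.37 (adjusted p = 0.0416), with a mean signal of 2131 in haploid EpiSC-1, 784 in haploid EpiSC-2, 430.3 in diploid EpiSC-1 and 782 in diploid EpiSC-2. The other two were Cdkn1a, which encodes the inhibitor p21 of the same family as p57, at -2.89 ± 0.31 (adjusted p = 1.24e-05), and Phlda3, a relative of Phlda2, at -2.06 ± 0.28 (adjusted p = 1.05e-04).

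Of the marker lists of other cells, the feeder list differed between the ploidies in most of its tested genes. Of 8 tested fibroblast feeder markers 6 were higher in haploid cells, and the summed signal of all 10 was 15789.7 to 19154 on haploid arrays against 708 to 1032 on diploid arrays, with none at 0. The collagen gene Col3a1 read 6895 to 8533 in haploid and 43.6 to 152 in diploid cells. Most of the sum came from 2 collagen genes, since Col3a1 averaged 8147 and Col1a2 6321 in haploid EpiSC-1, where the sum averaged 18846. The 2 tested feeder markers not called were Thy1, at -0.25 (limma adjusted p = 0.763), and Dcn, at 3.97 (adjusted p = 0.154). Of 5 tested trophoblast markers 3 were higher, with a summed signal of all 9 of 2190.2 to 2958 against 1016 to 1248, and Cdx2 at 342 to 1093 against 3.49 to 30.6. The other trophoblast genes called were Tfap2c (2.35) and Plac1 (1.24), while Eomes had -0.02 (limma adjusted p = 0.982) and Krt7 -0.43 (adjusted p = 0.721). Of 4 tested endoderm markers limma called none, with 1 at an unadjusted p under 0.05. The summed signal of all 7 was 494 to 3638 on haploid and 1483 to 2887 on diploid arrays. Of 8 epiblast markers 2 were higher and 4 lower. The higher ones were Sox2, by 1.85 (limma adjusted p = 1.59e-06), and Lefty1, by 1.09 (adjusted p = 1.29e-04). The lower ones were Tdgf1 at -1.07 (adjusted p = 1.94e-05), Dnmt3b at -1.27 (0.00289), Pou5f1 at -0.77 (0.0101) and Otx2 at -2.82 (0.0419). Pou5f1 read 4249.9 to 7619.7 on haploid arrays and 8542 to 9710.0 on diploid arrays. Otx2 averaged 74.0 in haploid EpiSC-1, 2289.9 in haploid EpiSC-2, 3962 in diploid EpiSC-1 and 2133 in diploid EpiSC-2. The part of these cells in the differences of the clusters was not tested. In such bulk RNA, fewer cells of a type and less RNA per cell cannot be told apart. The 3′ over 5′ signal ratio for beta actin, a measure of RNA quality, was 1.34 to 1.42 on haploid and 1.46 to 1.68 on diploid arrays. That for Gapdh overlapped, at 0.836 to 0.870 on haploid and 0.821 to 0.938 on diploid arrays, and the part of RNA quality was not tested either.

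Between the haploid lines the summed feeder signal averaged 16034 in haploid EpiSC-2 and 18846 in haploid EpiSC-1, and the trophoblast sum averaged 2238 in haploid EpiSC-2 and 2820.3 in haploid EpiSC-1. Airn 1451634_at averaged 438 ± 15.6 in haploid EpiSC-2 and 999 ± 61.7 in haploid EpiSC-1 (SD, n = 3 each). Kcnq1ot1 1457781_at averaged 485 ± 43.0 in haploid EpiSC-2 and 732 ± 93.6 in haploid EpiSC-1. Members of these lists went both ways. The feeder gene Dcn averaged 444 in haploid EpiSC-2 and 333 in haploid EpiSC-1, and the trophoblast genes Eomes and Krt7 were higher in haploid EpiSC-2, by 1.80 (limma adjusted p = 1.31e-08) and 1.73 (adjusted p = 3.33e-05). The endoderm sum averaged 3566 in haploid EpiSC-2 and 539 in haploid EpiSC-1, and the epiblast sum 47389 in haploid EpiSC-2 and 35820.0 in haploid EpiSC-1. The part of the marked cells was not tested here either.

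Genes whose log2 signal most resembled each profile over the 12 arrays were found among all tested probe sets by Pearson's r. Because the arrays fall into 4 lines, these r values mostly describe the order of 4 line means and carry no p. For Airn 1451634_at they were Meis2 (r = 0.989), Anxa6 (0.988) and Vegfc (0.982). For Kcnq1ot1 1457781_at they were Zeb2 (r = 0.986), Csrnp2 (0.986) and Ctsc (0.982). For Igf2r 1424112_at they were Cdca5 (r = 0.992), Ppp1r14c (0.991) and Ppp2ca (0.991), and for Phlda2 they were Wdr92 (r = 0.996), Ide (0.996) and Fancl (0.995). For Cdkn1c the closest was Ccdc85a (r = 0.956), with mean signals of 40.9 in haploid EpiSC-1, 112 in haploid EpiSC-2, 82.7 in diploid EpiSC-1 and 117 in diploid EpiSC-2. Btbd19 (0.927) and Nhej1 (0.924) followed.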

How the data were processed

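Total RNA of 12 EpiSC samples, 3 biological replicates of each of 4 lines, was labelled with biotin and hybridised to Affymetrix arrays. The deposited values are signal intensities that the authors computed with MAS5, per the submitters' processing notes; the sources used here give no version. Whether the replicates came from separate cultures is not stated beyond the word biological, so p-values may partly measure technical spread. The table held 45101 probe sets; 64 controls were dropped, 34945 had 1 symbol in the platform annotation, 932 had several and 9160 had none. Signals were used as log2 without a pseudocount or further normalization. Detection calls, scan dates and the positions of probes within genes were not used here, so which strand a probe set reads rests on the annotation.

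The ploidies were compared by limma 3.58.1 (R 4.3.3), with an intensity trend, on the 19837 probe sets that passed the signal filter, with line as a random block (statmod 1.5.0, correlation 0.769). Lines of 1 ploidy were compared in a fit of 4 line means over the 12 arrays. Benjamini-Hochberg adjustment ran over all tested probe sets, and an adjusted p under 0.05 was a call. Tests were two-sided. All probe sets of the 9 genes were named; in other lists, calls of lowest p were named and further genes were chosen after their values were seen; for likeness, the 3 genes of highest r were named. The 9 genes and the lists were chosen with earlier results of these data known. The fits with the line block, with line means as units and between the haploid lines were tested on simulated data for probe sets that passed the filter. The fit without a filter was not tested in this way. In the simulation all lines shared 1 spread per probe set. Airn 1451634_at, in contrast, had a log2 SD of 0.09 in haploid EpiSC-1 and 1.46 in diploid EpiSC-1. The simulation therefore does not cover such probe sets, and its outcome is not given here. Alternatives changed the scaling, pseudocount, filter, probe-set choice, trend and blocks, or left out an array or line. The deviations of same-numbered replicates correlated at -0.04 to 0.08 over 18 pairs, against -0.07 to 0.03 over 36 pairs of different numbers, and since not every pair was over 0.1 the numbers were not taken to pair samples. The number of arrays limits the precision.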

Additional observations from a re-analysis of the deposited data

How the results depend on the processing

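The ploidy count of 7 called among 8 tested probe sets of the clusters became 14 of 20 without the signal filter, 2 of 3 with the filter at the 75th percentile, 4 of 6 with the brightest probe set of each gene and 4 of 8 without the line haploid EpiSC-1, and it was 6 to 7 when single arrays were left out. Between the haploid lines the count of 6 became 10 of 10 with 32 added to each signal and 3 of 3 at the 75th percentile, and was 4 to 7 with single arrays left out. Between the diploid lines the count of 4 became 1 of 3 at the 75th percentile and 2 without diploid EpiSC-2 replicate 1, and was 2 to 4 with single arrays left out. With the replicate block the counts were 6, 6 and 4. Over the 3 comparisons the other 61 alternative counts stayed within 1.5 times. Of the alternative values counted for single probe sets, 810 kept their direction and side of the threshold. Another 50 lost a call, 22 gained one and 3 changed direction. All 3 were between the diploid lines in Airn, which lay under the filter level there. Between lines of 1 ploidy, probe sets under the filter that were not called were counted without the fits that left out single arrays. Changes of direction in those fits are not in these counts. Airn 1451634_at gave -0.16 in place of 0.67 without diploid EpiSC-1 replicate 1, with a range of -0.16 to 1.21 over single arrays left out. Airn 1436627_at gave 0.19 without diploid EpiSC-1 replicate 3 and 0.09 without diploid EpiSC-2 replicate 2, in place of -0.06, with a range of -0.32 to 0.19. Raising signals under the filter level to that level before log2, an alternative chosen after seeing the data like the fits that join another choice to no signal filter, gave 3.40 for Airn 1451634_at and 3.25 for Kcnq1ot1 1457781_at in place of 4.89 and 5.64. Over all tested probe sets the ploidy calls numbered 3157, against 9133 without the line block, 601 with line means as units and 2019 without the line haploid EpiSC-1. The fit with fewer lines or units has fewer samples; other causes were not tested. Diploid signals of the noncoding probe sets and haploid signals of Slc22a18 1417809_at lay under the filter level, which limits the size of their differences.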
